A study of Mus musculus with 20 samples.

Results

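The aortas of mice given rosiglitazone in the food for 2 days at 10 mg/kg/day were compared with those of mice on plain chow, as 3 arrays against 3. These 6 arrays belong to a series of 20 in 7 groups. All 6 came from adult C57BL/6J mice, and the labels give no sex and no exact age. Each array held RNA pooled from 8 aortas, so a replicate (A, B or C) is a pool, and the p-values measure the spread between pools rather than between mice. Other groups of the same experiment received 3 mg/kg/day for 2 or 14 days (3 arrays each) or 10 mg/kg/day for 14 days (2 arrays). Chow-fed wild-type littermates of PPARγ P465L mice (3 arrays), whose strain the labels do not name, gave a second untreated group. The remaining 3 arrays held the P465L knock-in mice themselves, which were part of the fit but of no comparison here. Whole aortas were measured, so a lower signal from fewer cells of a type cannot be told apart from less RNA per cell.

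Rosiglitazone is a thiazolidinedione, a drug that binds PPARγ. PPARγ is a nuclear receptor that sits on DNA together with RXR and, once bound by a ligand, switches on genes of fatty acid uptake, binding, storage and oxidation. It is most abundant in fat cells and is also present in the endothelium, the smooth muscle and the macrophages of the vessel wall. The aorta carries a coat of adipose tissue on its outer side, in mice partly of the brown kind, so fat cell transcripts are part of what such an array reads.

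Levels are given below as log2 of the array signal plus 72. The aortic markers were bright in all 6 arrays. The smooth muscle actin Acta2 lay between 16.62 and 17.15, the smooth muscle myosin Myh11 between 15.90 and 16.35, and elastin, Eln, between 15.63 and 16.15. None of these 3 genes, nor the smooth muscle genes Tagln and Cnn1 or the endothelial cadherin Cdh5, passed the test between the groups. The log2 fold change was 0.18 for Acta2 (SE 0.12), -0.12 for Myh11 (SE 0.13), 0.22 for Eln (SE 0.12) and 0.35 for Cdh5 (SE 0.19). Pecam1, the endothelial adhesion molecule, did pass and is described with the endothelial genes.

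Every array had the same trimmed mean signal of 1500, and median signals were 347.9 to 374.5 in the chow pools and 362.2 to 429.2 in the treated pools. The lowest Pearson's r of an array with its own group was 0.977 for chow and 0.978 for treated, across genes, which are not independent replicates. Chow pool C stood apart from chow pools A and B in several gene lists. Its mean over 16 tested brown adipocyte markers, relative to the average of the 6 chow and treated arrays, was -0.74 on the log2 scale against -0.10 and -0.08 in pools A and B. It was also the lower for PPAR targets (-0.67 against -0.09 and -0.12) and general fat cell markers (-0.46 against 0.12 and 0.09). For mitochondrial beta oxidation it gave -0.37 against 0.07 and -0.01. The mean of chow pool C over 16 tested skeletal muscle markers was 1.37 against -1.19 and -0.79, and the treated pools ranged there from -0.92 to 1.19. Chow pool A was the highest of the 6 arrays for MHC class II genes (0.46) and macrophage markers (0.27). What these differences contribute to the results was not tested. Values without a single pool are given beside results below that it moved.

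Across 11076 genes, limma called 56 (0.506%) at a Benjamini-Hochberg adjusted p under 0.05. Of these, 15 were higher in the treated aortas (0.135% of the genes tested) and 41 were lower (0.37%). The 3 treated and the 3 chow arrays did not overlap for any of the 56, which was also true of 2624 genes in all (23.7%). Only 10 of the called genes differed by 2-fold or more. At an unadjusted p under 0.05 there were 629 genes higher (5.68%) and 1058 lower (9.55%), 1687 together where 554 were expected by chance, while the median log2 fold change over all genes was -0.01. Whatever their p, 47.7% of all genes were higher and 52.3% lower. With each array centred on its median gene, 40 genes were called, 18 higher and 22 lower.

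The number of calls rested on all 6 pools. Without treated pool B limma called 0 genes, although 1210 had an unadjusted p under 0.05. It called 3 genes without chow pool A, 7 without chow pool C, 11 without treated pool C, 14 without treated pool A and 18 without chow pool B. Each of the 56 genes kept its direction in these 6 fits. Haghl, Osr1 and Limd2 were the 3 genes called without chow pool A (chosen after the values were seen), with adjusted p-values of 0.0231 for Haghl and 0.0177 for Osr1.

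**Figure D1:**
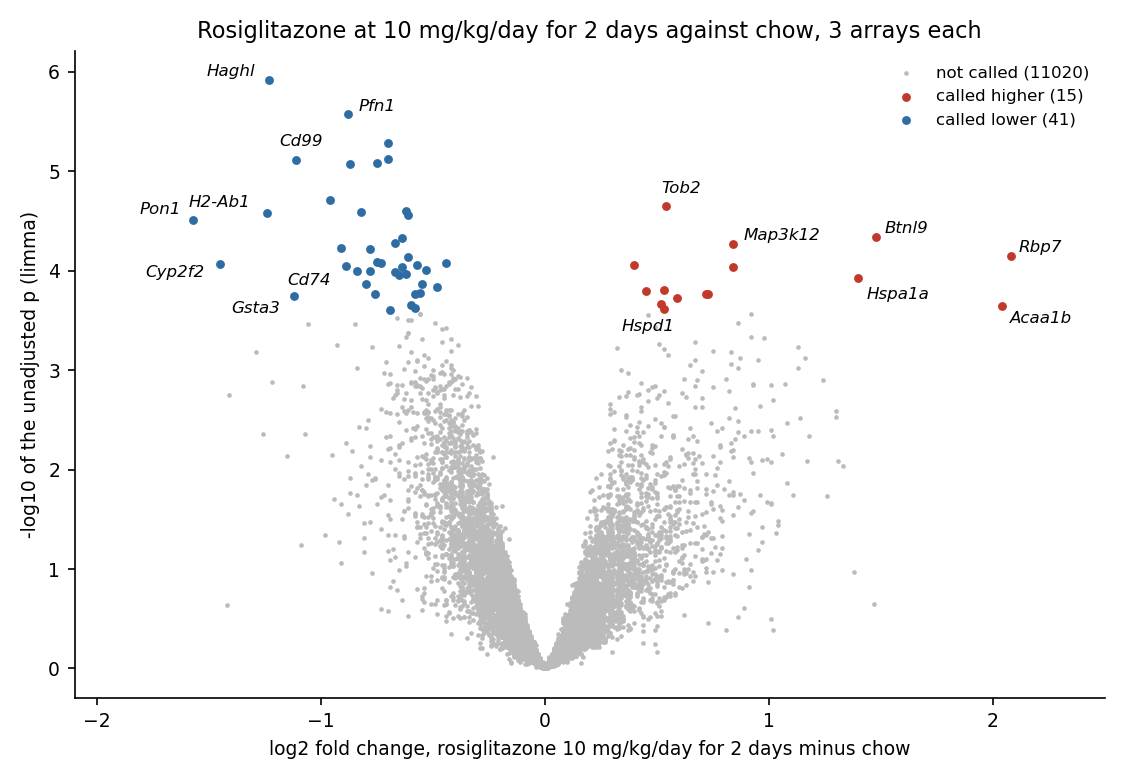
Log2 fold change (horizontal, treated minus chow) against -log10 of the unadjusted limma p (vertical) for 11076 genes, with called genes in red (15 higher) and blue (41 lower). The points furthest to the right are Rbp7 and Acaa1b, 4.23-fold and 4.11-fold higher in the treated aortas, and the point furthest to the left among the called genes is Pon1, which fell by 1.57 on the log2 scale.

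Genes of lipid handling known as PPAR targets gave the 2 steepest rises. Rbp7, a retinol-binding protein of fat and endothelial cells, had log2 signals of 8.61, 9.02 and 8.02 in chow pools A, B and C and of 10.54, 11.18 and 10.17 in treated pools A, B and C. The lowest treated pool thus lay above the highest chow pool, and Rbp7 rose 4.23-fold (log2 fold change 2.08, SE 0.42, limma adjusted p = 0.0325). Chow pools A and C of Rbp7 lay below the brightness cut for testing (8.73), which was applied to the mean over all 20 arrays. Acaa1b, a thiolase that carries out the last step of fatty acid oxidation in peroxisomes, read 10.20, 10.69 and 9.46 in chow and 11.90, 12.38 and 12.17 in treated pools. It rose 4.11-fold (log2 fold change 2.04, SE 0.46, adjusted p = 0.0472), with chow pool C again the lowest of the 6. Without chow pool C the log2 fold change was 1.81 for Rbp7 (adjusted p = 0.113) and 1.71 for Acaa1b (adjusted p = 0.145).

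Of 31 tested PPAR target genes, these 2 were the only ones called, where 0.135% of all genes were called higher. The list as a whole leaned upward, with 25 members higher and 6 lower and a median log2 fold change of 0.56, against -0.01 for all genes. At an unadjusted p under 0.05, 15 members were higher and 2 lower, against 5.68% and 9.55% of all genes. The list had been put together from textbook targets with earlier results of these arrays known. Fabp4, which carries fatty acids inside fat cells and capillary endothelium, came closest to the threshold: its chow pools read 16.21, 16.27 and 15.54 and its treated pools 17.07, 16.87 and 16.83, a difference of 0.92 (SE 0.21, adjusted p = 0.0514). Its relative Fabp5 differed by 0.98 (SE 0.23, adjusted p = 0.0692). Both sets of treated pools lay above all chow pools, while the groups did not overlap in either direction for 23.7% of all genes. Neither gene passed the test.

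Further targets differed by as much with a wider spread. Pdk4, the kinase that closes pyruvate dehydrogenase when fat is burned, read 12.55, 12.45 and 11.62 in chow and 13.54, 13.93 and 13.06 in treated pools (log2 fold change 1.30, SE 0.38, adjusted p = 0.116). For Angptl4, which is secreted and blocks lipoprotein lipase, the difference was 1.01 (SE 0.31, adjusted p = 0.137), and for the fatty acid transporter Cd36 it was 1.02 (SE 0.32, adjusted p = 0.142). Pck1, which makes the glycerol backbone for fat storage, differed by 1.11 (SE 0.43, adjusted p = 0.227). In each of these 4 genes the treated pools lay above all chow pools, where 23.7% of all genes had groups without overlap. None of the 4 passed the test. Chow pool C was the lowest chow pool in all 4, and for Pdk4, Cd36 and Pck1 it lay well below the other pools. The lipase Lpl (0.68, adjusted p = 0.302) and the hormone adiponectin, Adipoq (0.62, adjusted p = 0.345), were further from the threshold. Without chow pool C the difference was 0.64 for Pck1 (adjusted p = 0.521), 0.31 for Lpl (adjusted p = 0.668) and 0.34 for Adipoq (adjusted p = 0.669). Pparg itself did not pass: its log2 signals were 10.64, 10.46 and 9.64 in chow and 9.62, 10.30 and 10.13 in treated pools, a difference of -0.23 (SE 0.39, adjusted p = 0.823).

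Markers of brown fat, the heat-producing adipose tissue, showed the same picture without a single call. Of 16 tested, 15 were higher and 1 lower, with a median of 0.70. At an unadjusted p under 0.05, 6 were higher, against 5.68% of all genes. Ucp1, the protein that lets brown fat mitochondria release energy as heat, read 14.47, 13.97 and 12.76 in chow and 14.99, 15.41 and 14.79 in treated pools (1.33, SE 0.46, adjusted p = 0.178). Without chow pool C the difference was 0.84 (adjusted p = 0.423). Ppargc1a, the coactivator that drives mitochondrial growth, differed by 1.06 (adjusted p = 0.161) and the fatty acid elongase Elovl3 by 0.99 (adjusted p = 0.167). Markers of fat cells in general were less shifted: 13 of 20 were higher and 7 lower, none called, with a median of 0.22. Without chow pool C the medians were 0.25 for the PPAR targets (23 higher, 8 lower), 0.40 for the brown fat markers (13 higher, 3 lower) and 0.03 for the general fat cell markers (11 higher, 9 lower). The part that fat cell content plays in the PPAR target values was not tested.

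Promoters of the list were searched for the sequence that PPAR and RXR bind together, AGGTCA repeated after 1 base, on both strands with up to 2 mismatches. It was found for 4 of 25 PPAR targets with a promoter in the RefSeq table and for 309 of 8979 tested genes (3.44%), and not in the windows of Rbp7 and Acaa1b. Of 13 genes called higher with a promoter 1 held it (7.69%), and of 29 called lower 0 did. The 1 gene was the chaperone Hspd1, with 2 mismatches.

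The oxidation machinery followed in the same direction by less. For mitochondrial beta oxidation 16 of 21 genes were higher and 5 lower (median 0.21, 0 called), for oxidative phosphorylation 54 of 66 were higher and 12 lower (median 0.12, 0 called), and for the tricarboxylic acid cycle 21 of 30 were higher and 9 lower (median 0.10, 0 called). Hadhb, a subunit of the mitochondrial trifunctional protein, differed by 0.57 (SE 0.18, adjusted p = 0.142), and Cycs, cytochrome c, by 0.68 (SE 0.18, adjusted p = 0.095). Among 27 peroxisomal genes 17 were higher and 10 lower, and only Acaa1b was called. Without chow pool C the median was 0.07 for beta oxidation (12 higher, 9 lower), 0.08 for oxidative phosphorylation (46 higher, 20 lower) and 0.04 for the tricarboxylic acid cycle (17 higher, 13 lower). Without chow pool A it was 0.36 for beta oxidation, and without treated pool A it was 0.07 for oxidative phosphorylation.

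Genes that make fatty acids and triglycerides leaned the other way. Of 26 tested, 18 were lower and 8 higher with a median of -0.16, 7 of the lower ones at an unadjusted p under 0.05, and none was called. Over all genes 9.55% were lower at that threshold. Scd1, the desaturase that makes oleic acid, read 16.02, 16.19 and 15.58 in chow and 15.14, 15.06 and 15.08 in treated pools (-0.84, SE 0.22, adjusted p = 0.094). Fatty acid synthase, Fasn, differed by -0.89 (SE 0.29, adjusted p = 0.149) and the citrate lyase Acly by -0.79 (SE 0.24, adjusted p = 0.123). For all 3 genes every treated pool lay below every chow pool, where 23.7% of all genes had groups without overlap. Genes of cholesterol synthesis were lower in 15 of 20 cases, none called, with a median of -0.16. Their median was -0.25 without chow pool A and -0.08 without chow pool C (12 lower, 8 higher). That of the fatty acid and triglyceride genes was -0.09 without chow pool B and also without treated pool A.

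**Figure D2:**
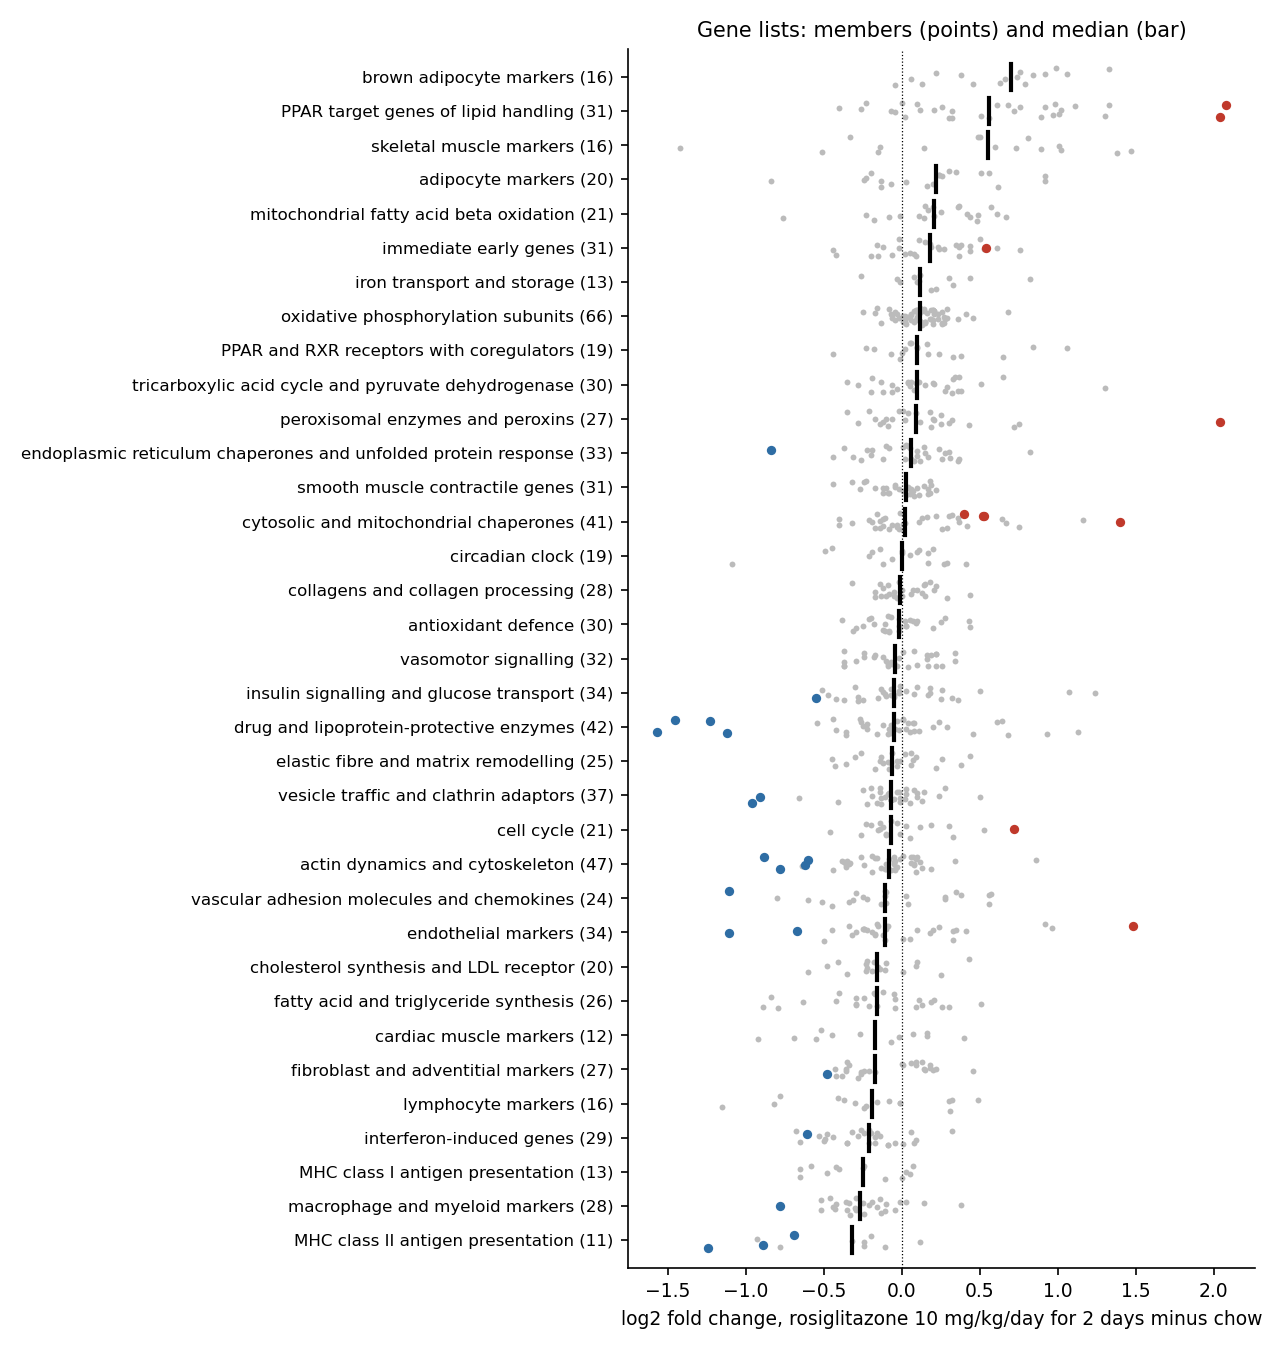
Log2 fold change (horizontal, treated minus chow) of the tested members (points, with called genes in red if higher and blue if lower) of each gene list with at least 10 tested members, ordered by the list's median (black bar), with the number tested in brackets. Brown adipocyte markers (median 0.70) and PPAR targets (0.56) lie at the top, and MHC class II (-0.32) and macrophage genes (-0.27) lie at the bottom.

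Of the 15 genes that rose, 4 belonged to the stress chaperones, a list of 41 tested genes, where 0.135% of all genes were called higher. Chaperones of the heat shock family fold newly made and damaged proteins, and their genes are switched on by heat shock factors that bind repeats of GAA and its mirror TTC in the promoter. Hspa1a, the inducible Hsp70, read 12.87, 13.15 and 13.30 in chow and 14.82, 14.00 and 14.71 in treated pools, and rose 2.65-fold (log2 fold change 1.40, SE 0.30, adjusted p = 0.0348). Hspd1, the Hsp60 of mitochondria, read 13.69, 13.81 and 13.68 against 14.35, 14.34 and 14.09 and rose 1.44-fold (0.53, SE 0.12, adjusted p = 0.0484). Hsp90aa1, the inducible Hsp90, rose 1.43-fold (0.52, SE 0.12, adjusted p = 0.0471), and 2 further bright probe sets of it gave 0.32 and 0.51. St13, a partner of Hsp70, rose 1.32-fold (0.40, SE 0.08, adjusted p = 0.0325) from 13.47 ± 0.05 to 13.87 ± 0.04 (SD, n = 3).

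The promoters of the heat shock genes are shown because they carry this element. The windows below are the 150 bases before the transcription start in RefSeq's GRCm38.p6 table, with capitals marking GAA, 2 bases, TTC. A promoter was in the table for 2 of the 4 called chaperones and for Hspa1b, the neighbouring copy of Hspa1a, which was singled out after its values were seen. Hspd1 has another start in the table whose window holds no such element, and the start shown was picked for holding it.
Hspa1a (chr17:34972157-34972306, minus strand): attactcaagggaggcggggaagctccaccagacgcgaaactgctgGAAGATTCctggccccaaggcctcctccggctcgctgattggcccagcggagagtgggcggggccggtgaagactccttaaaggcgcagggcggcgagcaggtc
Hspa1b (chr17:34959239-34959388, minus strand): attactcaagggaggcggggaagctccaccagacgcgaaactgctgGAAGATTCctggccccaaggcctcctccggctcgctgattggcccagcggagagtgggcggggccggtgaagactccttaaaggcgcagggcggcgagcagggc
Hspd1 (chr1:55087933-55088082, minus strand): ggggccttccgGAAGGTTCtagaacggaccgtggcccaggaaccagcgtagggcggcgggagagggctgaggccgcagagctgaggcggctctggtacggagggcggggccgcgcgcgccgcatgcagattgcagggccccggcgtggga
In windows of 250 bases before to 50 after the start, searched on both strands, the element was found for 14 of 34 genes of the chaperone list (41.2%), for 4 of 13 genes called higher (30.8%), for 3 of 29 called lower (10.3%) and for 613 of 8979 tested genes with a promoter in the table (6.83%). A match of letters is a description and not a measured binding site. The windows of Hspa1a and Hspa1b were identical in 149 of 150 bases, and where probes cannot separate the 2 copies their signals are uncertain as values of a single gene. Hspa1b differed by 1.16 (SE 0.29, adjusted p = 0.0863) and was not called.

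The chaperone list as a whole did not move as one. Of 41 tested genes, 23 were higher and 18 lower with a median of 0.02, and 13 were higher and 3 lower at an unadjusted p under 0.05. Over all genes 5.68% were higher and 9.55% lower at that threshold. All 4 calls were lost without chow pool A, where Hspa1a gave 1.29 (adjusted p = 0.174). In the endoplasmic reticulum the 33 chaperone and unfolded protein genes had a median of 0.06, and the 1 call among them was downward: Pdia4, a disulphide isomerase, read 10.56, 10.64 and 10.43 in chow and 9.78, 9.66 and 9.67 in treated pools and fell by 0.84 (SE 0.17, adjusted p = 0.0325). Immediate early genes, the first to be transcribed after a stimulus, were higher in 22 of 31 cases with a median of 0.18, which was 0.09 without treated pool C and 0.29 without treated pool B. Of these only Tob2, which restrains cell proliferation, was called, at 0.54 (SE 0.10, adjusted p = 0.0235). Fos differed by 0.76 (SE 0.27, adjusted p = 0.192), with treated pools from 12.47 to 13.96 that overlapped the chow pools, and by 0.36 without treated pool C (adjusted p = 0.599).

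Of 11 tested genes of MHC class II antigen presentation, 3 fell, where 0.37% of all genes were called lower. MHC class II molecules are pairs of chains that display peptides to helper T cells, and Cd74 is the invariant chain that guides them through the cell. H2-Ab1 had a chow mean of 12.62 ± 0.59 (SD, n = 3), with 13.18 in pool A, 12.68 in pool C and the lowest value in pool B. It read 11.42, 11.43 and 11.30 in treated pools, a fall by 1.24 (SE 0.23, adjusted p = 0.0235). Cd74 read 14.65, 13.79 and 14.36 against 13.41, 13.38 and 13.35 and fell by 0.89 (SE 0.18, adjusted p = 0.0325). H2-Aa fell by 0.69 (SE 0.16, adjusted p = 0.0488). For all 3 genes the treated pools lay close together and below every chow pool, while the chow pools were spread more widely, with pool A highest and pool B lowest. H2-Eb1 differed by -0.93 (SE 0.23, adjusted p = 0.0754), with treated pools of 12.19, 12.22 and 12.01 below chow pools of 13.56, 12.48 and 13.15. Its groups did not overlap, as for 23.7% of all genes.

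In the whole class II list 10 genes were lower and 1 higher (median -0.32), 3 of them called and 5 lower at an unadjusted p under 0.05. Over all genes 9.55% were lower at that threshold. The other bright probe sets of H2-Ab1 gave -1.35 and -1.16, and those of H2-Aa gave -1.51, -0.61 and -1.24. The H2 genes are close relatives, and how far their probes share signal was not tested. Without chow pool A the 3 calls were lost: H2-Ab1 gave -0.96 (adjusted p = 0.135), Cd74 -0.70 (adjusted p = 0.183) and H2-Aa -0.55 (adjusted p = 0.231), and the list's median was -0.31.

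Class II promoters share a conserved module that ends in a CCAAT box, read as ATTGG on the other strand. The 150 bases before the start of H2-Aa and H2-Eb1 (RefSeq table, GRCm38.p6) show it in capitals. These 2 were picked from the 8 tested class II genes with a promoter in the table, and H2-Eb1 was not called.
H2-Aa (chr17:34287824-34287973, minus strand): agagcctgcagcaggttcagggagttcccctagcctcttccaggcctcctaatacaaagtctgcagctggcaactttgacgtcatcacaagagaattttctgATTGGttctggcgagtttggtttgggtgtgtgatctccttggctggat
H2-Eb1 (chr17:34305717-34305866, plus strand): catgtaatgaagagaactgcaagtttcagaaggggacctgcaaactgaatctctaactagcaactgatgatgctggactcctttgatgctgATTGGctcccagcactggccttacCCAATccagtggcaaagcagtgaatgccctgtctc
A CCAAT box on either strand of the longer windows was found for 6 of 8 tested class II genes with a promoter (75.0%) and for 3819 of all 8979 (42.5%), so it is a common motif. The letters GAA, 2 bases, TTC also occur once in the H2-Aa window.

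Neighbouring immune groups leaned down with few calls. Class I antigen presentation was lower in 10 of 13 genes (median -0.25, 0 called) and macrophage markers in 25 of 28 (median -0.27, 1 called). The interferon list, which holds receptor chains beside induced genes, was lower in 24 of 29 (median -0.21, 1 called). Without chow pool A the macrophage median was -0.16, with 22 lower and 6 higher, and without treated pool A the class I median was -0.40. The call on the interferon list was Ifngr2, a chain of the receptor for interferon gamma. It fell by 0.61 (SE 0.12, adjusted p = 0.0325), although its other bright probe set gave 0.84. The other receptor chain, Ifngr1, differed by -0.50 (adjusted p = 0.095) and the guanylate-binding protein Gbp2 by -0.68 (adjusted p = 0.0999; -0.44 without chow pool C, adjusted p = 0.282). Coro1a, an actin-binding protein of leukocytes, read 11.37, 10.93 and 10.92 in chow and 10.20, 10.53 and 10.17 in treated pools and fell by 0.78 (SE 0.16, adjusted p = 0.0325).

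Defining leukocyte markers were measured but not called. The macrophage complement gene C1qa differed by -0.36 (SE 0.13, adjusted p = 0.199), from chow pools of 13.34, 13.17 and 13.08 to treated pools of 12.87, 12.91 and 12.74, and the lysosomal gene Laptm5 by -0.44 (adjusted p = 0.154). Of 16 dendritic cell markers 5 were bright enough to be tested, of which 3 were higher and 2 lower (median 0.06, 0 called), and of 16 lymphocyte markers 12 were lower (median -0.19, 0 called). Averaged over the macrophage list, the arrays ran from 0.03 to 0.27 in chow and from -0.14 to -0.09 in treated pools. The share of the class II values that follows leukocyte number was not tested. Ly6e, an interferon-responsive surface protein that is not on the interferon list, fell by 0.67 (SE 0.14, adjusted p = 0.0325), and its other bright probe set gave -0.16. P2ry6, a receptor for extracellular UDP, read 12.09, 11.64 and 11.75 against 11.18, 11.02 and 11.19 and fell by 0.70 (SE 0.12, adjusted p = 0.0134), and Axl, a receptor that recognises dying cells, fell by 0.44 (SE 0.09, adjusted p = 0.0325). Lta4h, which makes the chemoattractant leukotriene B, fell by 0.57, while its other bright probe set gave 0.04.

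Endothelial genes moved in both directions. Cd99, an adhesion molecule that leukocytes use to cross the vessel wall, read 14.01, 13.71 and 13.61 in chow and 12.83, 12.54 and 12.63 in treated pools. It fell by 1.11 (SE 0.19, adjusted p = 0.0134), and its other bright probe sets gave -0.77 and -0.88. Pecam1 read 14.18, 14.05 and 13.91 against 13.52, 13.48 and 13.11 and fell by 0.67 (SE 0.13, adjusted p = 0.0325). Btnl9, a butyrophilin-like membrane protein of endothelial cells, went up: its chow pools read 8.31, 8.74 and 8.51 and its treated pools 10.12, 9.95 and 9.92, a 2.78-fold rise (1.48, SE 0.29, adjusted p = 0.0325). Chow pools A and C of Btnl9 lay below the brightness cut of 8.73. Over 34 endothelial markers 13 were higher and 21 lower with a median of -0.11. That median was -0.04 without chow pool A, -0.19 without chow pool C and -0.07 without treated pool C. The nitric oxide synthase of endothelium, Nos3, differed by -0.29 (SE 0.14, adjusted p = 0.324).

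Cavin1 builds the coat of caveolae, the flask-shaped pits of endothelial, smooth muscle and fat cell membranes. Its chow pools were nearly equal at 14.08, 14.05 and 14.06, and its treated pools read 13.07, 13.20 and 13.45. It fell by 0.82 (SE 0.15, adjusted p = 0.0235), and 2 further bright probe sets gave -0.69 and -0.50.

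On the list of actin dynamics and cytoskeleton 4 of 47 genes fell, where 0.37% of all genes were called lower. Profilin, Pfn1, which feeds actin monomers to growing filaments, read 14.73, 14.65 and 14.70 in chow and 13.92, 13.64 and 13.88 in treated pools and fell by 0.88 (SE 0.14, adjusted p = 0.0134). Arpc4, a subunit of the complex that branches filaments, fell by 0.62 (SE 0.13, adjusted p = 0.0329), and Map4, which binds microtubules, fell by 0.60 (SE 0.13, adjusted p = 0.0471). Coro1a, given above, was the other member called. Of 47 genes on the list 33 were lower and 14 higher, with a median of -0.08, 12 lower and 2 higher at an unadjusted p under 0.05. Over all genes 9.55% were lower and 5.68% higher at that threshold. Outside that list the filament-binding drebrin, Dbn1, fell by 0.75 (SE 0.15, adjusted p = 0.0325), the filamin Flnc by 0.58 (SE 0.13, adjusted p = 0.0398) and the small GTPase Rnd2 by 0.58 (SE 0.13, adjusted p = 0.0484). Of the contractile genes of smooth muscle 17 of 31 were higher and 14 lower, none called, with a median of 0.03.

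**Figure D3:**
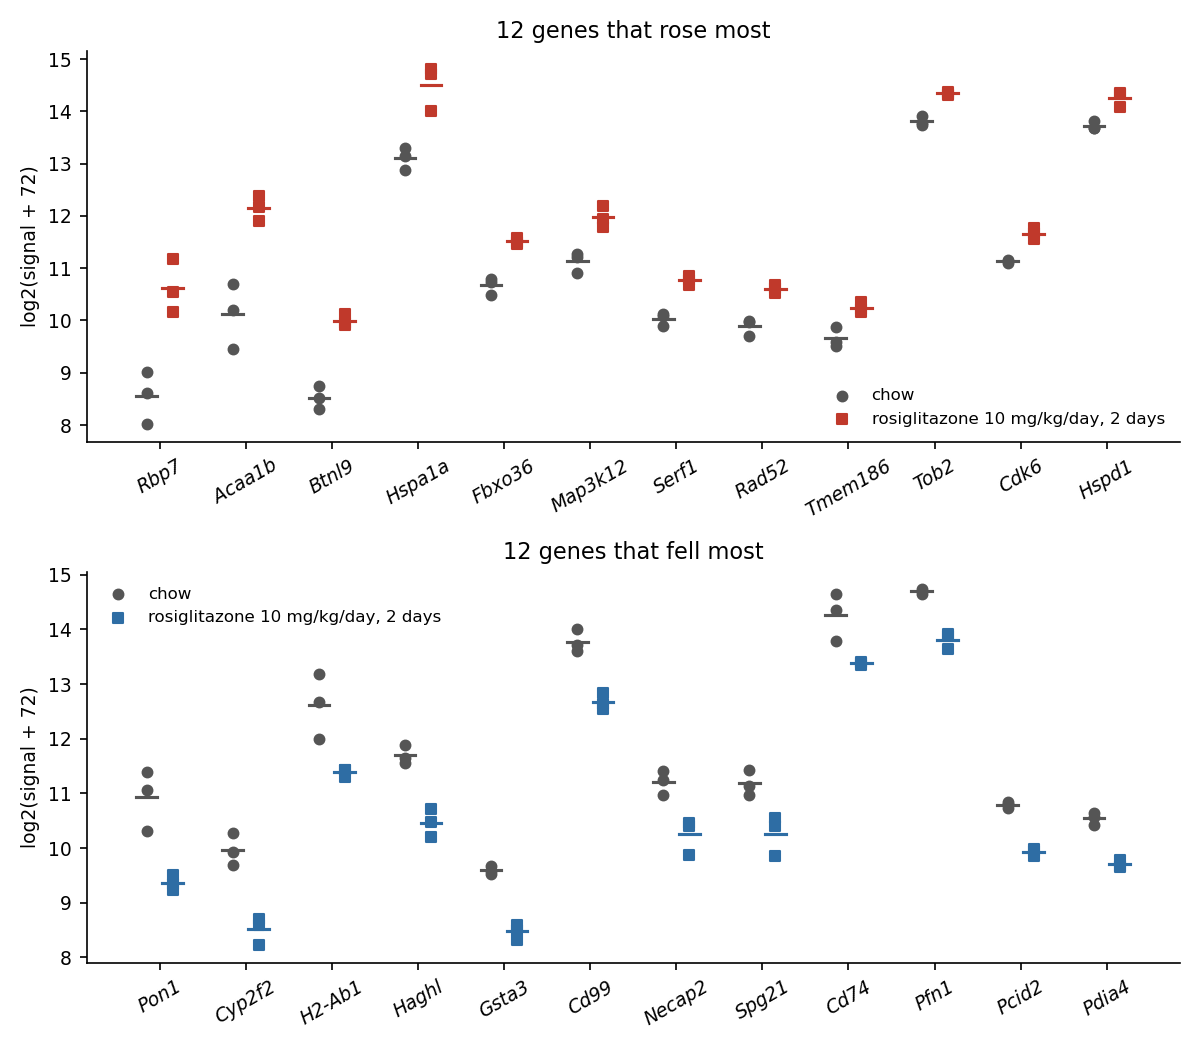
Log2(signal + 72) (vertical) of each chow array and each treated array for the 12 steepest rises and the 12 steepest falls among the called genes (horizontal), each point an array. No gene has a treated point among its chow points, and H2-Ab1 and Cd74 show treated points close together and chow points far apart.

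The 2 steepest falls were those of Pon1 and Cyp2f2. Pon1, a paraoxonase carried on high-density lipoprotein, read 11.40, 11.07 and 10.31 in chow and 9.51, 9.24 and 9.34 in treated pools, a fall by 1.57 on the log2 scale or 2.96-fold (SE 0.29, adjusted p = 0.0247). Cyp2f2, a cytochrome P450 best known from airway epithelium, read 10.28, 9.92 and 9.69 against 8.71, 8.60 and 8.23 and fell by 1.45 (SE 0.30, adjusted p = 0.0325). Gsta3, a glutathione transferase, fell by 1.12 (SE 0.25, adjusted p = 0.0405) from 9.68, 9.53 and 9.59 to 8.60, 8.32 and 8.51. The treated pools of Cyp2f2 and Gsta3 all lay below the brightness cut of 8.73. Haghl, which resembles the glyoxalase hydrolases, read 11.55, 11.88 and 11.65 against 10.72, 10.21 and 10.47 and fell by 1.23 (SE 0.18, adjusted p = 0.0134). Its other bright probe sets gave only -0.55 and -0.63. Pon1, Cyp2f2, Gsta3 and Haghl were the 4 calls among 42 genes on the list of drug and lipoprotein-protective enzymes, whose median was -0.05. Over all genes 0.37% were called lower. Of the 7 tested airway and lung markers Cyp2f2 was the only call and the median was -0.04, and all 7 tested liver plasma protein genes were lower without a call (median -0.12). Without chow pool C 4 of these liver genes were lower and 3 higher, and their median was -0.34 without chow pool A, -0.23 without treated pool B and -0.21 without treated pool C. The glutaredoxin Glrx, which repairs oxidised thiols, fell by 0.73 (SE 0.15, adjusted p = 0.0325), while none of 30 antioxidant defence genes was called (median -0.02).

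Fzd2, Sfrp4, Osr1, Igfbp5, Apod and Nrtn were among the genes that fell. Fzd2, a Wnt receptor, fell by 0.62 (SE 0.11, adjusted p = 0.0235) from 13.41, 13.27 and 13.46 to 12.67, 12.74 and 12.87, and the secreted Wnt modulator Sfrp4 fell by 0.48 (SE 0.10, adjusted p = 0.0389). Osr1, a transcription factor of connective tissue, read 13.33, 13.68 and 13.76 against 12.95, 12.67 and 12.90 and fell by 0.75 (SE 0.13, adjusted p = 0.0134). Igfbp5, which binds insulin-like growth factors, fell by 0.55 (SE 0.12, adjusted p = 0.0378), and its second bright probe set gave -0.78. The lipocalin Apod fell by 0.61 (SE 0.11, adjusted p = 0.0235), and Nrtn, a neurotrophic factor, fell by 0.65 (SE 0.14, adjusted p = 0.0329). Of 27 fibroblast and adventitial markers 13 were higher and 14 lower (median -0.17, which was -0.10 without chow pool A and -0.11 without treated pool C), with Sfrp4 the only call. Neither the 28 collagen genes (median -0.01) nor the 25 genes of elastic fibres and matrix remodelling (median -0.06) held a call, and the 32 vasomotor genes had none either (median -0.04).

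The remaining calls were scattered over the cell's housekeeping. Among vesicle genes, Necap2, a clathrin accessory protein, fell by 0.96 (SE 0.17, adjusted p = 0.0235) and Spg21, an endosomal protein, by 0.91 (SE 0.18, adjusted p = 0.0325). They were 2 of 37 on that list, where 0.37% of all genes were called lower. The other bright probe set of Necap2 gave only -0.23. In the nucleus, the messenger RNA export component Pcid2 fell by 0.87 (SE 0.15, adjusted p = 0.0134) and the chromatin remodeller Chd4 by 0.78 (SE 0.16, adjusted p = 0.0325). The other bright probe set of Pcid2 gave only -0.29 and that of Chd4 only -0.03. The methionine salvage enzyme Mri1 fell by 0.80 and the secreted olfactomedin Olfm1 by 0.76, while the other bright probe sets of Olfm1 gave -0.25 and -0.27. Limd2, a LIM domain protein, read 11.21, 11.25 and 11.57 in chow and 10.73, 10.49 and 10.70 in treated pools and fell by 0.70 (SE 0.11, adjusted p = 0.0134). Ciz1, Cdk11b, Aktip and Bicral fell by 0.64, 0.53, 0.56 and 0.64, but another bright probe set of Aktip gave 0.35, and those of Bicral gave 0.02 and -0.12.

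Among the other rises, Map3k12, a stress kinase of neurons, was called at 0.84 (SE 0.17, adjusted p = 0.0325) and Fbxo36, an F-box protein, at 0.84 (SE 0.17, adjusted p = 0.0325). The second bright probe sets of these 2 genes gave -0.29 and -0.24, and that of the coactivator Sub1 gave -0.08 against 0.45 for the brightest. Serf1 rose by 0.73, the repair gene Rad52 by 0.72, Tmem186 by 0.59 and the cell cycle kinase Cdk6 by 0.53. Their other bright probe sets gave 1.19 and 0.08 for Serf1, 0.17 for Rad52, 0.10 and 0.16 for Tmem186 and 0.47 for Cdk6. Of the 56 called genes 33 had further bright probe sets. All of these had the same sign as the brightest for 24 genes and the opposite sign for 6, they were mixed for Bicral, Map4 and Tob2, and the other 23 genes rested on 1 bright probe set.

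Whether 10 mg/kg/day gave another response than 3 mg/kg/day was asked at 2 days. Limma called 0 of 11076 genes (0%), and 1480 had an unadjusted p under 0.05. The smallest adjusted p was 0.173, shared by Tcf25, a transcription factor, and Pfn1. Pfn1 read 14.73, 14.55 and 14.34 at the lower dose and 13.92, 13.64 and 13.88 at the higher one (-0.73, SE 0.14). For Cavin1 the lower-dose pools read 14.19, 13.97 and 13.90, all near chow, and the difference between the doses was -0.78 (SE 0.15, adjusted p = 0.199). Pon1 differed by -1.35 between the doses (SE 0.29, adjusted p = 0.225). Among the lipid genes, the higher dose differed from the lower by 0.32 for Rbp7 (SE 0.42, adjusted p = 0.755), by 0.51 for Acaa1b (SE 0.46, adjusted p = 0.624) and by 0.11 for Fabp4 (SE 0.21, adjusted p = 0.832). The errors are as large as these differences or nearly so, and they do not show that the doses act alike. Hspa1a differed by 0.50 (SE 0.30, adjusted p = 0.455) and H2-Ab1 by -0.52 (SE 0.23, adjusted p = 0.355).

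Longer treatment at the same dose was compared over 2 arrays at 14 days. Limma called 0 genes (0%), with 382 at an unadjusted p under 0.05 where 554 were expected, and the smallest adjusted p was 1. The lowest unadjusted p belonged to S100a8, a calcium-binding protein of neutrophils, which read 11.15, 10.81 and 11.05 at 2 days and 10.06 and 9.56 at 14 days (-1.19, SE 0.26). Apod was among the 5 lowest, with 11.16 at 2 days and 11.67 at 14 days as group means. Rbp7 had a mean of 10.63 at 2 days and 10.92 at 14 days, Acaa1b of 12.15 and 12.83, Btnl9 of 10.00 and 10.55, and Hspa1a of 14.51 and 14.68. For H2-Ab1 the means were 11.38 and 12.03, with chow at 12.62. This comparison, the one of doses and the one with chow share the treated arrays, so their values are not independent.

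The treated aortas were also set against the chow-fed wild-type littermates, a group of another cohort, so that treatment and cohort cannot be told apart. Limma called 1286 genes (11.6%), 717 higher and 569 lower in the treated aortas. Gdpd3, a phosphodiesterase and the largest called change, had a mean of 8.16 in treated pools, 8.70 in chow and 12.67 in littermates, and Adcy1, an adenylate cyclase, had 10.12, 9.88 and 13.07. Pam, Cap1 and Rab6b were the other 3 of the 5 largest, at -3.37, -3.34 and 3.22. Against this second untreated group some of the genes above were called in the same direction. Pon1 was lower than in the littermates, whose mean was 12.22 (log2 fold change -2.86, SE 0.29, adjusted p = 4.07e-06), Haghl gave -1.26 (adjusted p = 0.000186) and Hspa1a gave 1.65 (adjusted p = 0.00158). Pecam1 gave -0.63 (adjusted p = 0.00479) and Cavin1 gave -0.89 (adjusted p = 0.001).

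Others were not called in that direction. Rbp7 had a littermate mean of 10.03, above the chow mean of 8.55, and differed from the treated pools by 0.60 (adjusted p = 0.369). Btnl9 gave 0.33 (adjusted p = 0.476), Acaa1b 1.15 (adjusted p = 0.104) and Fabp4 0.15 (adjusted p = 0.672). The class II genes were lower still in the littermates than in the treated pools: H2-Ab1 had a littermate mean of 11.04, Cd74 of 12.76 and H2-Aa of 12.86, and treated minus littermate was 0.35 for H2-Ab1 (adjusted p = 0.344) and 0.62 for Cd74 (adjusted p = 0.0322). The brown fat list, at -0.10, -0.08 and -0.74 in the chow pools and 0.20 to 0.46 in the treated pools, had a mean of 0.49 in the littermates.

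**Figure D4:**
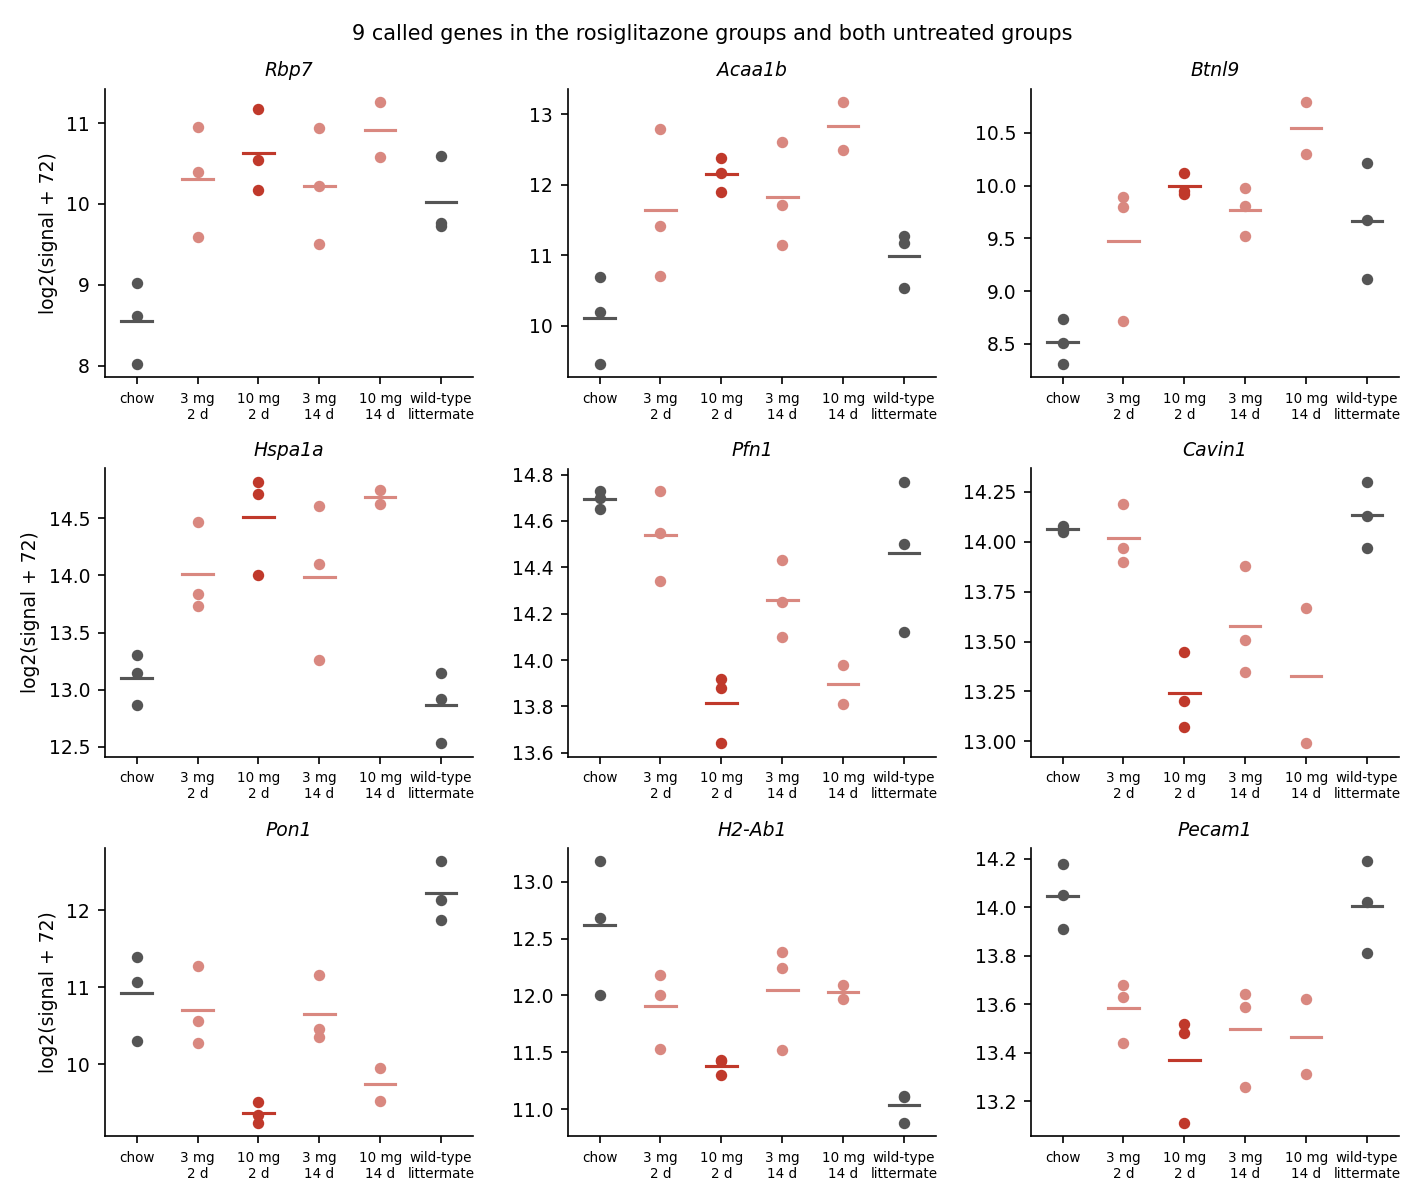
Log2(signal + 72) (vertical) of 9 called genes in chow, the 4 rosiglitazone groups (dose per kg and day, and days of treatment) and wild-type littermates (horizontal), each point an array and each bar a group mean, with the 10 mg, 2 day group in red. Littermate means are 12.87 for Hspa1a, near chow, 10.03 for Rbp7, nearer the treated pools, and 11.04 for H2-Ab1, below the treated pools.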

How the data were processed

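Messenger RNA of pooled mouse aortas was read on Affymetrix whole-genome mouse arrays. The deposited intensity values are linear signals per probe set, made by the authors with MAS5, per the submitters' processing notes; its version and settings are not given in the sources used here. Each array's mean signal, trimmed by 2% at both ends, was 1500, a scaling that assumes equal total signal. Of 45101 probe sets, 64 were controls, 34945 had 1 symbol, 932 several and 9160 none. Each of 18193 genes took its brightest probe set, and 11076 genes whose mean reached the 50th percentile of probe sets (signal 354) were tested as log2(signal + 72), since dim MAS5 signals are noisy.

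Group means over all 20 arrays were fitted with limma 3.58.1 in R 4.3.3 (eBayes with a variance trend, 13 residual degrees of freedom, two-sided, Benjamini-Hochberg over all genes), and the fit was tested on simulated data. The number of arrays limits the precision. Values per array were given for the 12 steepest rises and 12 steepest falls among the called genes, for up to 4 members of each list by unadjusted p and for fixed lipid, class II and vascular genes; every called gene could be named, and in the other comparisons the 5 largest called changes, or the 5 smallest p-values. The members and the 41 gene lists were chosen with earlier results of these data known, and no list was tested as a set. Promoters were searched with Python 3.11.15, pandas 2.3.3 and numpy 2.4.6, and figures drawn with matplotlib 3.10.9. Replicate letters did not pair the chow and treated pools (r of deviations 0.0261, -0.0805 and -0.00121).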

Additional observations from a re-analysis of the deposited data

Results flagged for a closer look

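Probe sets that name no single gene were left out of the comparisons and fitted apart. Of 3124 such bright probe sets, limma called 15 between the treated and the chow aortas (adjusted p under 0.05), of which 10 were lower and 5 higher. Chance would give 156 at an unadjusted p under 0.05, and 359 were found. Differences between the groups thus also occurred among probe sets left out of the comparisons. The probe set with the smallest adjusted p (0.0027) fell by 0.80 on the log2 scale (SE 0.12), with chow pools of 13.90, 13.77 and 13.75 and treated pools of 13.18, 12.85 and 12.99. The one with the next smallest rose by 1.67 (SE 0.30, limma adjusted p = 0.0152), from 11.59, 11.51 and 10.66 to 12.70, 13.04 and 13.03. Their genes are not named here.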

How the results depend on the processing

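Against chow 56 genes were called; 27 were called with the mean of a gene's probe sets (17 of them among the 56), 170 with only the arrays of the 2 groups, 14 with the rosiglitazone experiment only, 13 without the variance trend and 612 with array weights; the cause of these moves was not tested. Leaving out 1 array gave 0 to 18 calls. Between 39 and 65 were called with other offsets, filters or normalizations and with the replicate letter as a block (replicate block: 64 calls, 54 of them shared; the letters do not pair these pools). With the probe-set mean Ifngr2 (0.12) and Axl (0.18) reversed, and all other called genes kept their direction in all alternatives run (Gsta3 was too dim for the 60th percentile filter). Pfn1, Haghl and P2ry6 were called in 16 of 18 alternatives, Rbp7 in 12 and Acaa1b in 7. Haghl was not called with the probe-set mean (limma adjusted p = 0.157). The comparison of doses stayed at 0 calls in all alternatives run, and that of times at 0 except for 2 with only the 2 groups' arrays. Against littermates 1286 calls became 762 with the probe-set mean and 636 to 1135 without 1 array, and the fit on the rosiglitazone experiment alone does not hold this group. The replicate block moved no count by over 1.5 times. Dim probe sets and 3 pools a group limit what could be detected.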

Other observations

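Receptors and coregulators of the PPAR pathway were measured beside their targets, and none of 19 was called: 14 were higher and 5 lower, with a median log2 fold change of 0.10, which was 0.04 without chow pool C and 0.06 without treated pool C. Ppara, the PPAR of fatty acid oxidation, read 9.90, 10.18 and 9.60 in chow and 10.89, 10.71 and 10.59 in treated pools (0.84, SE 0.33, limma adjusted p = 0.227). Rxrb, a dimer partner, differed by 0.65 (SE 0.20, adjusted p = 0.134) and the corepressor partner Hdac3 by -0.44 (SE 0.10, adjusted p = 0.0605). Treated and chow pools did not overlap for these 3 genes, as for 23.7% of all genes.

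Iron genes were higher in 10 of 13 cases (median 0.12, or 0.21 without treated pool A; 0 called). The iron exporter Slc40a1 differed by 0.82 (SE 0.23, adjusted p = 0.0974). In insulin signalling, where Igfbp5 was the 1 call among 34 genes, Prkar2b, which holds protein kinase A inactive, differed by 1.24 (SE 0.33, adjusted p = 0.095) and Sgk2, a serine kinase, by 1.07 (SE 0.29, adjusted p = 0.095), with chow pools of 8.47, 8.53 and 8.52 and treated pools of 9.34, 9.71 and 9.66. The chow pools of Sgk2 all lay below the brightness cut of 8.73. The muscle phosphofructokinase Pfkm differed by -0.42 (SE 0.10, adjusted p = 0.0692). None of 19 clock genes was called (median 0.00). Of 21 tested genes on the cell cycle list Rad52 was the only call, with the cyclin Ccnd1 at -0.46 (SE 0.11, adjusted p = 0.0732). The called kinase Cdk6 is not on that list.

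Skeletal muscle transcripts varied between pools, and the groups overlapped: Pvalb, a calcium buffer of fast muscle, read 7.79, 7.43 and 10.89 in chow and 10.26, 11.24 and 8.76 in treated pools (1.38, SE 0.82, adjusted p = 0.436; 2.47 without chow pool C, 0.74 without chow pool B and 0.80 without treated pool B, adjusted p = 0.159, 0.779 and 0.793). Chow pool C was the highest chow pool for Pvalb and treated pool C the lowest treated pool.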
